A study of Mus musculus with 12 samples.

Results

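The genes described here are 10 chromatin silencing factors of the mouse, chosen by name: the histone chaperones Atrx, Daxx, Chaf1a and Chaf1b, the HUSH complex genes Mphosph8 and Pphln1, the MORC ATPases Morc2a and Morc3, the structural maintenance protein Smchd1 and the chromatin remodeler Hells. They are 10 of 43346 gene identifiers in the deposited table. All 10 are protein-coding genes that passed the filter on low counts, with 17148 genes tested in all, and no member lies on chromosome 13.

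Silent chromatin has to be rebuilt after each round of DNA replication and defended where retrotransposons and satellite repeats could be transcribed. ATRX and DAXX place the replacement histone H3.3 at such repeats, and CAF-1 loads new histones behind the replication fork. HUSH together with MORC2A silences young retrotransposons and other intronless sequences that carry the repressive mark H3K9me3. SMCHD1 acts on the inactive X chromosome and on imprinted clusters, and HELLS opens nucleosomes so that DNA methylation can be maintained. In embryonic stem cells, where DNA methylation can be low, these histone-based routes carry much of the repression of endogenous retroviruses.

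The RNA came from embryonic stem cell cultures, with 3 libraries in each of 4 groups. B6 is the inbred strain C57BL/6J and D2 is the inbred strain DBA/2J. B6-13D2 is the congenic strain B6.D2-(rs30079041-rs51756099)/Bakr, a B6 background with a D2 segment of chromosome 13, and D2-13B6 is the reciprocal congenic strain D2.B6-(rs29224292-rs13469455)/Bakr, a D2 background with a B6 segment. The segments are named by different markers at both ends, so they may not cover the same stretch. Comparisons of the segment between backgrounds treat them as the same. All groups grew in serum medium with LIF, the MEK inhibitor PD0325901 and the GSK3 inhibitor CHIR99021. Per the labels' protocols the libraries of a strain are separate cultures of a single line, while the titles call them technical replicates. A difference between strains therefore cannot be told apart from a difference between lines, and p-values measure the spread between these cultures. The labels conflict in places: B6 replicate 3 carries another line name (B6 4-1) than B6 replicates 1 and 2 (B6 5-1), D2 has a different line name in its titles than in its cell line field, and for the D2-13B6 segment the series text names another end than the sample labels do. The molecule field says genomic DNA, although the protocol describes RNA libraries.

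Libraries held 22184196 to 36411799 expected counts, and the 10 genes had 1145 to 13573 counts in a library. Levels are given as CPM, counts scaled to a common library total with TMM factors, a scaling that centres the average gene. A gene is said to be called when the edgeR quasi-likelihood test gave an adjusted p under 0.05, and "rose" and "fell" are used of such genes.

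The libraries of the 4 groups also differed in markers of cell type. All 8 stem cell markers (Pou5f1, Nanog, Sox2, Klf4, Esrrb, Zfp42, Tfcp2l1 and Tdgf1) were above 1 CPM in every group, and their summed level ran from 2891 to 2924 CPM in D2, 3442 to 3454 in D2-13B6, 4153 to 4334 in B6 and 4729 to 4874 in B6-13D2. The summed level of 7 fibroblast or feeder markers ran nearly the other way, from 13984 to 16781 CPM in D2, 9292 to 10105 in B6, 7610 to 7941 in D2-13B6 and 3067 to 3153 in B6-13D2. Of those 7, 5 were above 1 CPM in every group, none was at 0 in every library, and Col1a1, the collagen I chain, led with a mean of 10478 CPM in D2, 6425 in B6, 5223 in D2-13B6 and 2092 in B6-13D2. The summed level of 41 S phase genes averaged 4757 CPM in D2, 5331 in D2-13B6, 6478 in B6 and 7857 in B6-13D2. In bulk RNA, fewer cells of a type and less RNA per cell cannot be told apart. The part of these markers in the results below was not tested. Instead each comparison was also computed with the libraries scaled to the summed stem cell markers. That scaling, chosen after seeing the data, moved the median of all genes by 0.54 on the log2 scale in D2 against B6, by -0.19 in B6-13D2 against B6 and by -0.25 in D2-13B6 against D2, so the directions below are relative to the average gene, and values on this scale are given for each comparison. The markers did not differ alike, so the size of this shift depends on which are summed. In D2 and B6, Tfcp2l1 had means of 435 and 855 CPM, Pou5f1 531 and 691, and Zfp42 61.7 and 67.5. Klf4 was lower in B6-13D2 (322 CPM) than in B6 (418 CPM), unlike the sum. Other choices of markers were not tested.

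**Figure D1:**
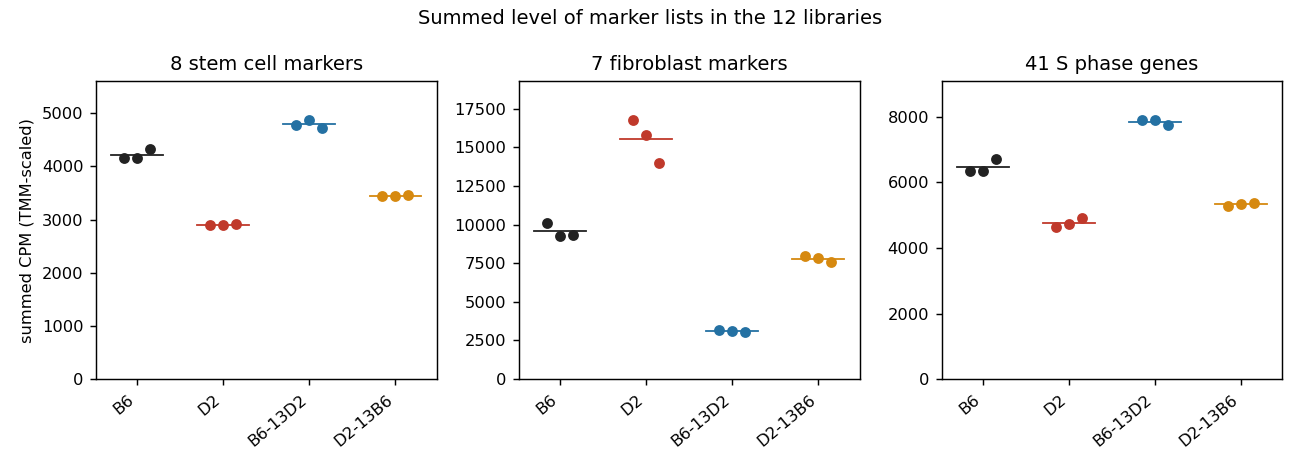
Summed CPM of 8 stem cell markers, 7 fibroblast or feeder markers and 41 S phase genes (vertical axes, CPM) in each of the 3 libraries of each group (points), with the group mean (lines). D2 is lowest in stem cell markers (2891 to 2924 CPM) and S phase genes and highest in fibroblast or feeder markers (13984 to 16781 CPM), and B6-13D2 is at the opposite end of each panel.

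Most of the 10 genes were lower in D2 than in B6. By edgeR 9 of 10 fell and none rose, where 60.0% of all genes tested were called, 30.3% lower and 29.8% higher. Their median log2 fold change was -0.40, beside 0.01 over all genes, and the libraries of both groups did not overlap for 9 of 10, beside 62.0% of all genes. In D2-13B6 against D2, where D2 cells carry the B6 segment, all 10 passed the test, of which 9 rose and 1 fell, beside 57.3% of all genes called, 27.6% higher and 29.7% lower. The median there was 0.30 beside 0.00, and libraries did not overlap for 9 of 10 members, beside 62.9% of all genes. In B6-13D2 against B6, where B6 cells carry the D2 segment, 6 of 10 passed the test, of which 3 rose and 3 fell, beside 58.3% of all genes, which is near the background share. There the median was -0.01 beside -0.04, and libraries did not overlap for 6 of 10, beside 63.2% of all genes. This last split depends on the scaling: with RLE size factors it was 4 higher and 1 lower, and with DESeq2 3 higher and 1 lower. The comparisons share the parental libraries, so they are not independent of each other.

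For 8 of the 10 genes, all but Atrx and Pphln1, every D2 library was below every library of the other 3 groups. That pattern was seen in 13.7% of all genes tested. Scaled to the stem cell markers, the comparison of D2 with B6 had 6 members called, all higher in D2, where the median of all genes stood at 0.55 and 72.9% of all genes were called higher and 6.64% lower. Under the same scaling, D2-13B6 against D2 had 5 members called, 3 higher and 2 lower, beside 12.8% of all genes higher and 51.7% lower. B6-13D2 against B6 had 8 called, 1 higher and 7 lower, beside 13.2% and 48.3% of all genes.

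**Figure D2:**
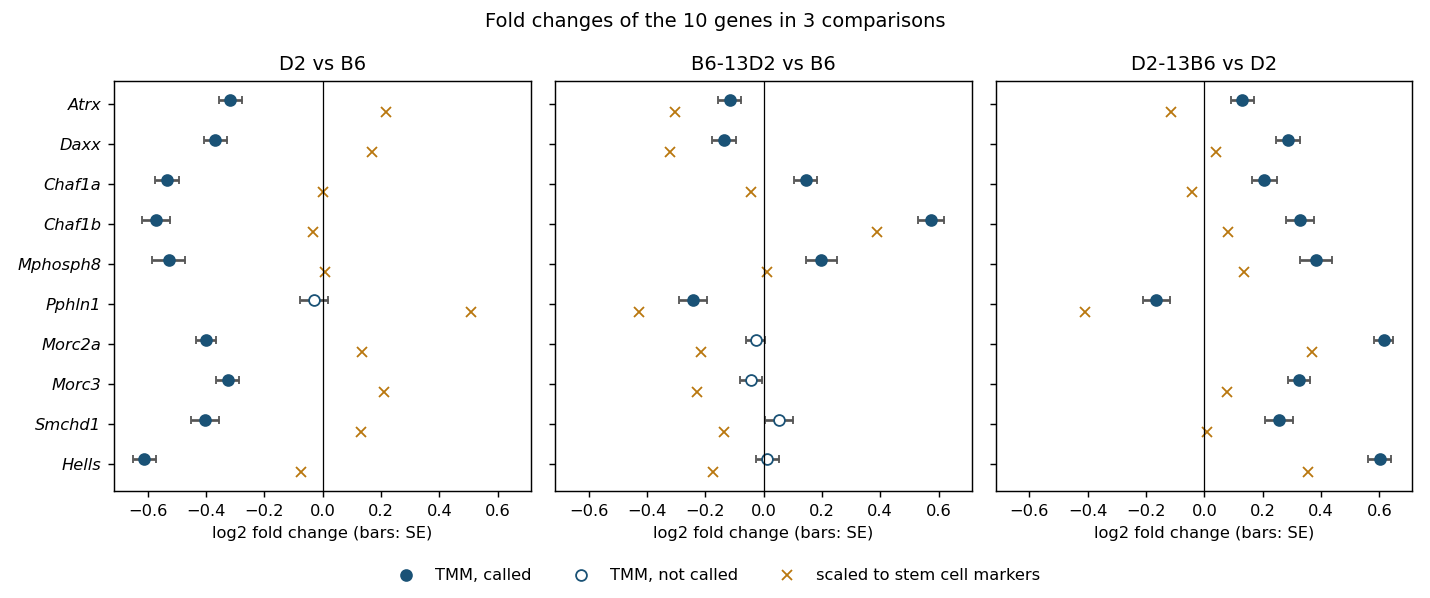
Log2 fold changes with standard errors (horizontal axis) of the 10 genes in D2 against B6, B6-13D2 against B6 and D2-13B6 against D2, filled where edgeR called the gene and open where it did not, with crosses for the values scaled to the stem cell markers. In D2 against B6, 9 genes are below 0 and called, and in D2-13B6 against D2, 9 genes are above 0, with Morc2a at 0.62 and Hells at 0.60 farthest out.

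Atrx (ENSMUSG00000031229, GRCm38 chromosome X, 105797615 to 105929403, minus strand) encodes the ATP-dependent partner of DAXX. Atrx had 358, 366 and 361 CPM in B6, 280.3, 280.3 and 310.2 in D2, 340.1, 332 and 329 in B6-13D2 and 326, 320.4 and 306 in D2-13B6. The D2 libraries were lowest except that D2 replicate 3 lay above the lowest D2-13B6 library, and the B6 libraries were above all others. Atrx fell in D2 against B6 by 0.32 on the log2 scale (SE 0.040, edgeR adjusted p = 2.03e-06, 0.80-fold).

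Daxx (ENSMUSG00000002307, chromosome 17, 33909414 to 33915590, plus strand) encodes the chaperone that binds H3.3 itself. Daxx had 88.4, 89.6 and 95.8 CPM in B6, 72.1, 72.0 and 67.8 in D2, 81.4, 84.8 and 83.0 in B6-13D2 and 84.5, 85.9 and 88.4 in D2-13B6. The D2 libraries stood clear below the rest, and both congenic groups overlapped each other between D2 and B6. Daxx fell in D2 against B6 by 0.37 (SE 0.041, edgeR adjusted p = 5.25e-07, 0.77-fold).

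Atrx and Daxx were the members that were called with the D2 segment lower on both backgrounds. Against B6, B6-13D2 differed by -0.12 for Atrx (SE 0.039, edgeR adjusted p = 0.0176) and by -0.14 for Daxx (SE 0.040, adjusted p = 0.00762). Against D2, D2-13B6 differed by 0.13 for Atrx (SE 0.039, edgeR adjusted p = 0.009) and by 0.29 for Daxx (SE 0.040, adjusted p = 8.64e-06). The effect of the D2 segment relative to the B6 segment, taken as B6-13D2 minus B6 on the B6 background and as D2 minus D2-13B6 on the D2 background, did not pass the test of a difference between backgrounds for Atrx (0.01, SE 0.056, edgeR adjusted p = 0.834) and did for Daxx (0.15, SE 0.057, adjusted p = 0.0288). The small changes in B6-13D2 were not stable: over 18 alternatives the adjusted p ran from 0.00322 to 0.307 for Atrx and from 0.00482 to 0.243 for Daxx. Both calls ended with DESeq2 and with RLE size factors. The Atrx call there also ended at a mean CPM of at least 1 (-0.08), with only the libraries compared (-0.08) and without B6 replicate 2 (-0.11) or B6-13D2 replicate 3 (-0.10), and the Daxx call without B6 replicate 3 (-0.10), while the Atrx call in D2-13B6 ended without D2 replicate 2 (0.10). The Daxx difference between backgrounds ended without B6 replicate 1 (0.13) or 2 (0.14), D2 replicate 3 (0.12), B6-13D2 replicate 2 (0.13) or D2-13B6 replicate 3 (0.13). On the scale set by the stem cell markers, D2 against B6 stood at 0.22 for Atrx and 0.17 for Daxx, and B6-13D2 against B6 at -0.30 and -0.32, all called. D2-13B6 against D2 then stood at -0.12 for Atrx, called, and at 0.04 for Daxx, not called, beside a median of -0.25 for all genes, so the pattern with the segment was not seen on that scale. Within 2 Mb of Atrx the 26 other genes tested had a median of 0.20 between D2 and B6. Between B6-13D2 and B6 their median was -0.49 and between D2-13B6 and D2 it was 0.03, and the part of this shift in the Atrx values was not tested. Within 2 Mb of Daxx the 155 other genes had medians of -0.15, 0.11 and 0.02 in the same order.

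Chaf1b showed the widest spread between groups of the 10 genes. Chaf1a (ENSMUSG00000002835, chromosome 17, 56040439 to 56072289, plus strand) and Chaf1b (ENSMUSG00000022945, chromosome 16, 93883901 to 93906115, plus strand) encode its large and middle subunits. Chaf1b had 72.5, 74.0 and 77.5 CPM in B6, 48.6, 48.0 and 54.6 in D2, 112, 111 and 110.0 in B6-13D2 and 60.8, 63.1 and 65.5 in D2-13B6. None of the 4 groups overlapped another, in the order D2, D2-13B6, B6 and B6-13D2, and the highest group mean was 2.20 times the lowest. Chaf1a had 113, 110.5 and 107 CPM in B6, 80.5, 74.6 and 72.8 in D2, 126, 120.3 and 118 in B6-13D2 and 86.7, 87.1 and 89.0 in D2-13B6. Its groups stood in the same order, again without overlap, with a ratio of 1.60 between the highest and lowest mean, below that of Mphosph8 at 1.66. The summed stem cell markers and the summed S phase genes had the same order of group means.

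Chaf1b fell in D2 against B6 by 0.57 (SE 0.048, edgeR adjusted p = 1.7e-08, 0.67-fold) and rose in B6-13D2 against B6 by 0.57 (SE 0.046, adjusted p = 5.53e-09, 1.49-fold). It also rose in D2-13B6 against D2 by 0.33 (SE 0.048, edgeR adjusted p = 1.24e-05). Both congenic lines thus had more Chaf1b RNA than the parental strain of the same background. The D2 segment went with more Chaf1b RNA than the B6 segment on the B6 background and with less on the D2 background, and this effect of the D2 relative to the B6 segment differed between backgrounds by 0.90 (SE 0.066, edgeR adjusted p = 1.22e-09). For Chaf1a the same comparisons gave -0.53 (SE 0.042, edgeR adjusted p = 6.38e-09), 0.14 (SE 0.041, adjusted p = 0.00559) and 0.21 (SE 0.042, adjusted p = 0.000384). Scaled to the stem cell markers, Chaf1b was called in B6-13D2 against B6 at 0.39, but neither in D2 against B6 at -0.03 nor in D2-13B6 against D2 at 0.08. Chaf1a stood between -0.04 and 0.00 in all 3 comparisons on that scale and was called in none. Chaf1a shares 4648 of its 8854 exon bases with Ubxn6 on the other strand, and whether counting used the strand is not given in the sources used here. Ubxn6 itself differed by -0.07, -0.07 and -0.15 in those comparisons, the last of them called. Within 2 Mb of Chaf1a the 57 other genes tested had medians of 0.01, 0.18 and 0.05 in the same order. The part of these shifts in the Chaf1a values was not tested.

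Chaf1a and Chaf1b, like many S phase genes, are known as targets of E2F factors, which switch on replication genes at the start of S phase. The promoter windows of 250 bases before each RefSeq gene start were therefore searched on both strands for the E2F core letters TTCCCGC, the related form TTCGCGC, the form TTGCCGC and finally the form TTGGCGC, a choice made after the windows had been read. Chaf1a, Chaf1b, Hells, Morc3, Smchd1 and Morc2a each held a match in 1 of their windows. Because the letters were chosen with these windows in view, no share of the members is compared with other genes. Of all 32851 windows of the same length 7.89% held a match, and of the 9178 with at least 60% GC 17.2% did, a GC content that 11 of the 14 windows of the members reached. For Hells and Morc2a the RefSeq start lies inside the GENCODE gene whose coordinates are given here, and so do their matches. The upstream windows of both CAF-1 genes are shown because their groups stood in the same order, with that of Morc3, which lies 7827 bases before Chaf1b on the same strand and did not follow it. They are from RefSeq (GRCm38.p6), plus strand, with the matches in capitals: chr17:56040166-56040415 for Chaf1a, chr16:93883651-93883900 for Chaf1b and chr16:93831871-93832120 for Morc3.
Chaf1a: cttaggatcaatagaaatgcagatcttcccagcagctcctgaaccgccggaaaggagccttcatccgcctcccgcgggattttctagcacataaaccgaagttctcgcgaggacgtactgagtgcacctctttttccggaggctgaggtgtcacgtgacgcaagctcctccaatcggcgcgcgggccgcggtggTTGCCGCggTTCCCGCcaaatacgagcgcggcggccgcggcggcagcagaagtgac
Chaf1b: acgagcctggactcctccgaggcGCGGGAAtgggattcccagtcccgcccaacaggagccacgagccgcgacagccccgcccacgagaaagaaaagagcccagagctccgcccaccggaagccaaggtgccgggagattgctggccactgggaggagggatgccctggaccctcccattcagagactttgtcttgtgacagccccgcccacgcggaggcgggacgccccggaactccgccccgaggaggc
Morc3: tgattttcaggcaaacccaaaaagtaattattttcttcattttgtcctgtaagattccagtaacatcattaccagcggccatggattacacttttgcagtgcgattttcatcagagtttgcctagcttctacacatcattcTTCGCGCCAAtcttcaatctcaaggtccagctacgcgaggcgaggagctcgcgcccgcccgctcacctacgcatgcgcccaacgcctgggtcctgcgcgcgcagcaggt

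In Chaf1a both matches lie close together near the gene start, in Chaf1b the match is on the other strand at the far end of the window, and in Morc3 a pair of overlapping matches runs into a CCAAT box. A CCAAT box stood in 33.8% of all windows and the GC box GGGCGG in 32.7%. A match describes letters in the window and is no evidence of binding.

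The HUSH genes moved apart. Mphosph8 (ENSMUSG00000079184, chromosome 14, 56668248 to 56697430, plus strand) encodes MPP8, the subunit that reads H3K9me3. Mphosph8 had 82.3, 89.7 and 89.2 CPM in B6, 53.5, 62.4 and 65.1 in D2, 98.9, 102 and 99.1 in B6-13D2 and 79.7, 77.4 and 79.1 in D2-13B6. Its groups stood in the order of the CAF-1 genes with no overlap. Mphosph8 fell in D2 against B6 by 0.53 (SE 0.056, edgeR adjusted p = 2.57e-07, 0.69-fold), rose in B6-13D2 against B6 by 0.20 (SE 0.054, adjusted p = 0.00415) and rose in D2-13B6 against D2 by 0.38 (SE 0.055, adjusted p = 1.04e-05). With libraries scaled to the stem cell markers these became 0.01, 0.01 and 0.14, of which the last was called. Mphosph8 shares 384 exon bases with the antisense lincRNA Gm16973.

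Pphln1 (ENSMUSG00000036167, chromosome 15, 93398350 to 93491510, plus strand) encodes periphilin, an RNA-binding subunit of HUSH. Pphln1 had 52.8, 58.8 and 55.5 CPM in B6, 53.9, 57.4 and 52.1 in D2, 48.5, 46.0 and 46.7 in B6-13D2 and 47.7, 48.7 and 49.8 in D2-13B6. Both parental groups overlapped each other and lay above both congenic groups, which also overlapped, so this gene alone of the 10 was lower in each congenic line than in its background strain. The difference was -0.03 in D2 against B6 (SE 0.048, edgeR adjusted p = 0.623). B6-13D2 differed from B6 by -0.24 (SE 0.048, edgeR adjusted p = 0.000306) and D2-13B6 from D2 by -0.16 (SE 0.047, adjusted p = 0.00606). The last call ended without D2 replicate 2 (-0.12), with adjusted p from 0.000995 to 0.0537 over the alternatives. The stem cell marker scaling gave 0.51, -0.43 and -0.41, all called. Within 2 Mb of Pphln1 the 15 other genes tested had medians of 0.48, -0.36 and -0.56 in these comparisons.

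Morc2a (ENSMUSG00000034543, chromosome 11, 3649191 to 3690477, plus strand) encodes the ATPase that HUSH recruits to compact chromatin. Morc2a had 119, 120.1 and 117 CPM in B6, 88.2, 91.2 and 89.9 in D2, 119, 114 and 115 in B6-13D2 and 138, 136 and 138 in D2-13B6. D2 was lowest, B6 and B6-13D2 overlapped, and D2-13B6 lay above every other library, and Morc2a was the member called above its B6 level in D2-13B6 (0.22, SE 0.032, edgeR adjusted p = 1.69e-05). Morc2a fell in D2 against B6 by 0.40 (SE 0.033, edgeR adjusted p = 1.41e-08), differed by -0.03 in B6-13D2 against B6 (SE 0.033, adjusted p = 0.501) and rose in D2-13B6 against D2 by 0.62 (SE 0.033, adjusted p = 3.42e-11, 1.53-fold). In D2-13B6 against D2 chromosome 11 as a whole stood apart: its 1385 other genes tested had a median of 0.39, beside -0.02 for the rest of the genome, and the 59 other genes within 2 Mb of Morc2a had a median of 0.42. In D2-13B6 against B6 the chromosome median was 0.29, beside -0.08 for the rest, and the median of the 59 genes was 0.36, above the 0.22 of Morc2a. The part of these shifts in the Morc2a values was not tested. Morc2a shares 483 exon bases with the antisense gene Tug1, which differed by -0.39, -0.10 and 0.46 in the same comparisons. With the scaling to stem cell markers, Morc2a stood at 0.14, -0.21 and 0.37.

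**Figure D3:**
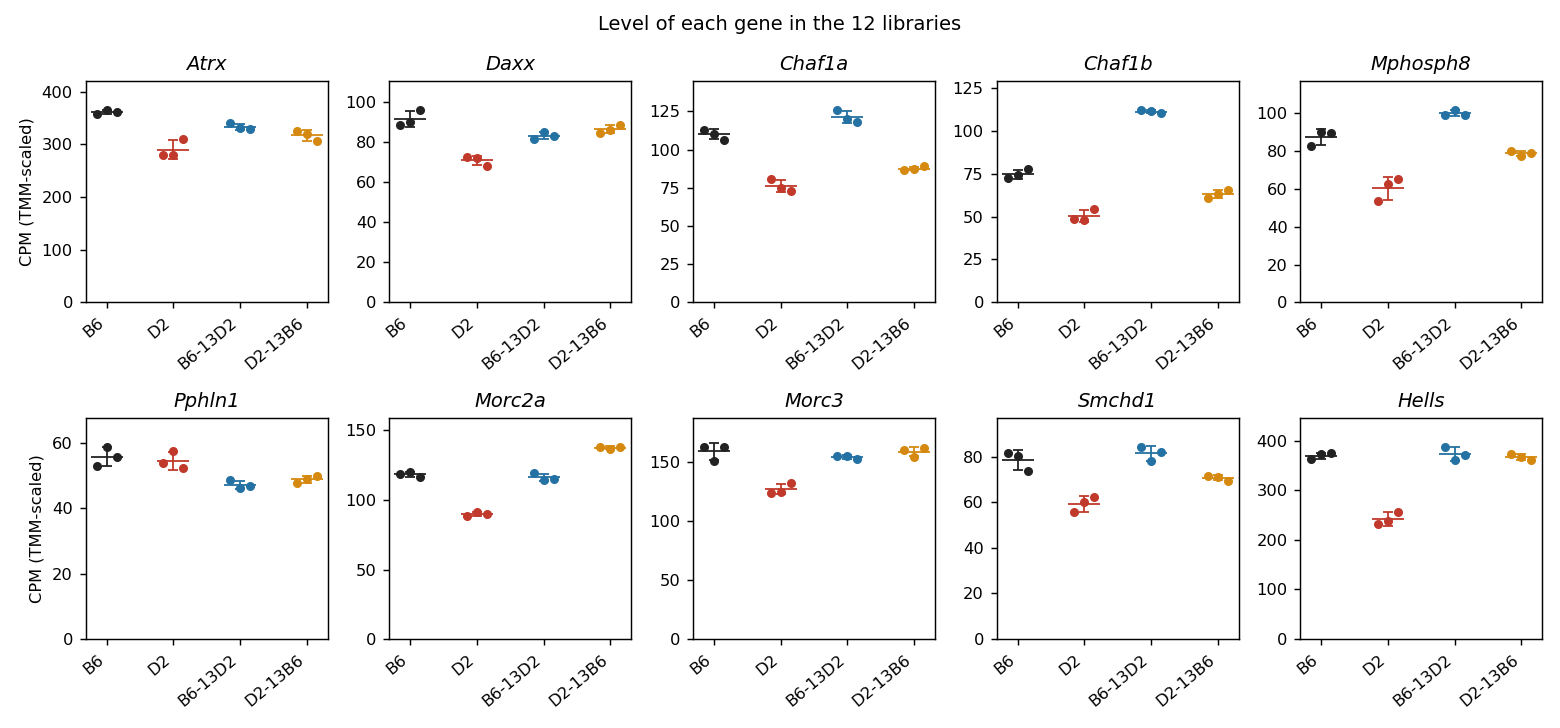
CPM (vertical axes, each panel with its own scale) of the 10 genes in the 3 libraries of each group (points), with the group mean and SD. D2 libraries lie below all others in 8 panels, Chaf1b is highest in B6-13D2 at 110.0 to 112 CPM, Morc2a is highest in D2-13B6 at 136 to 138 CPM, and Pphln1 is lower in both congenic groups.

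Morc3 (ENSMUSG00000039456, chromosome 16, 93832121 to 93876073, plus strand) encodes a MORC ATPase of PML nuclear bodies that silences endogenous retroviruses together with DAXX and H3.3. Morc3 had 163, 151 and 163 CPM in B6, 124, 125 and 132 in D2, 155, 155 and 152 in B6-13D2 and 160.0, 154 and 162 in D2-13B6. The D2 group stood clear below the other 3 groups. B6 overlapped both D2-13B6 and B6-13D2, and these overlapped each other. Morc3 fell in D2 against B6 by 0.33 (SE 0.039, edgeR adjusted p = 1.16e-06) and rose in D2-13B6 against D2 by 0.32 (SE 0.038, adjusted p = 1.04e-06), while B6-13D2 against B6 differed by -0.04 (SE 0.038, adjusted p = 0.349). When scaled to the stem cell markers, Morc3 stood at 0.21 in D2 against B6 and -0.23 in B6-13D2 against B6, both called, and at 0.08 in D2-13B6 against D2, no longer called. Over the 12 libraries the pattern of Morc3 was closest to that of Daxx among the members, with a root mean square distance of 0.065 between their centred log2 CPM values, beside a median distance of 0.35 from Morc3 to all genes. A gene with the same level in all libraries would lie at 0.14 from Morc3, since the distance is not scaled to the size of a gene's own differences.

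Hells (ENSMUSG00000025001, chromosome 19, 38930915 to 38971051, plus strand) encodes LSH, the remodeler that works with CDCA7. Hells had 363, 372 and 374 CPM in B6, 232, 237 and 257 in D2, 388, 361 and 370.1 in B6-13D2 and 372, 367 and 362 in D2-13B6. The D2 libraries were far below all others, and the other 3 groups overlapped. Hells fell in D2 against B6 by 0.61 (SE 0.039, edgeR adjusted p = 4.68e-10, 0.65-fold), which was the largest difference of the 10 genes there, and rose in D2-13B6 against D2 by 0.60 (SE 0.039, adjusted p = 4.5e-10, 1.52-fold). D2-13B6 then differed from B6 by -0.01 (SE 0.039, edgeR adjusted p = 0.827), and B6-13D2 differed from B6 by 0.01 (SE 0.039, adjusted p = 0.798). Neither p shows that the levels are the same. Under the scaling to stem cell markers, Hells stood at -0.08 in D2 against B6, not called, at -0.17 in B6-13D2 against B6, called, and at 0.36 in D2-13B6 against D2, still called. Its E2F match is shown alone, since the window runs into the annotated first exon, from RefSeq at chr19:38930918-38930947 on the plus strand, with the match and the first base of the next match in capitals.
Hells: accaccgggttTTCCCGCgaaagagaagcG

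Smchd1 (ENSMUSG00000024054, chromosome 17, 71344489 to 71475343, minus strand) encodes a protein required for X inactivation and imprinting. Smchd1 had 81.5, 80.3 and 73.7 CPM in B6, 55.6, 60.2 and 62.1 in D2, 84.4, 78.1 and 81.8 in B6-13D2 and 71.6, 71.1 and 69.5 in D2-13B6. D2 was lowest, D2-13B6 lay between D2 and the B6 background, and B6 and B6-13D2 overlapped. Smchd1 fell in D2 against B6 by 0.40 (SE 0.049, edgeR adjusted p = 1.38e-06), differed by 0.05 in B6-13D2 against B6 (SE 0.047, adjusted p = 0.356) and rose in D2-13B6 against D2 by 0.25 (SE 0.048, adjusted p = 0.000194). This rise was 0.01 and no longer called when the libraries were scaled to the stem cell markers, where D2 against B6 stood at 0.13 and B6-13D2 against B6 at -0.13, both called. Over the alternatives without that scaling, Smchd1 in B6-13D2 against B6 ran from 0.01 to 0.12 and was called in 1 of 18.

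Levels of different genes can be compared per length, as RPKM over the annotated exons. In B6 the mean per-length level was highest for Hells at 51.3 RPKM, followed by Morc3 at 29.3 and Daxx at 29.0. Mphosph8 at 24.3, Morc2a at 18.5, Atrx at 16.6 and Chaf1b at 16.0 came next. Chaf1a at 12.4 and Pphln1 at 12.3 were nearly level, and Smchd1 was lowest at 3.93 RPKM. Exon length counts all annotated exons, including ones these cells may not use.

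Across the segments, the congenic lines can also be set against the parental strain that carries the same segment. In B6-13D2 against D2, which share the D2 segment and differ in background, all 10 genes passed the test, of which 9 rose and 1 fell, beside 74.6% of all genes called and 36.7% called higher. The median was 0.41 beside -0.00, and no member's libraries overlapped, beside 75.5% of all genes. Chaf1b rose most, by 1.14 (SE 0.047, edgeR adjusted p = 1.68e-13, 2.21-fold), and Pphln1 was the gene that fell. On the scale of the stem cell markers 8 members were called, 1 higher and 7 lower, beside 8.83% of all genes higher and 74.8% lower, and Chaf1b, the one that was higher, stood at 0.42. In D2-13B6 against B6, which share the B6 segment, 7 of 10 passed the test, of which 1 rose and 6 fell, beside 59.0% of all genes called and 34.6% called lower. The median was -0.15 beside -0.06, and libraries did not overlap for 8 of 10, beside 65.2% of all genes. With the scaling to stem cell markers the split turned to 7 higher and 0 lower, beside 49.7% of all genes higher and 12.4% lower. The calls of Mphosph8 (-0.15, edgeR adjusted p = 0.0264) and Smchd1 (-0.15, adjusted p = 0.0116) there ended with DESeq2, with RLE size factors and with only the libraries compared, and over the alternatives the adjusted p reached 0.201 and 0.136. The Mphosph8 call also ended without B6 replicate 2 (-0.13) or 3 (-0.13) and without D2-13B6 replicate 2 (-0.14) or 3 (-0.15), and the Smchd1 call without B6 replicate 1 (-0.13). Daxx, at -0.08 and not called, was called without B6 replicate 1 (-0.11). The effect of the D2 relative to the B6 segment differed between the backgrounds for 9 of 10 members, 8 of them positive and 1 negative, beside 64.5% of all genes called in that test. On the stem cell marker scale 7 members were called, 3 higher (Chaf1b, Hells and Morc2a) and 4 lower (Atrx, Daxx, Pphln1 and Morc3), beside 12.5% of all genes higher and 55.2% lower.

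The partners of these proteins were read from a list of 32 genes in 6 groups, of which 31 were tested. Between D2 and B6, 24 of them passed the test, with 7 up and 17 down in D2, where 4 were up without B6 replicate 1 or without D2 replicate 3. Between B6-13D2 and B6 it was 21, with 12 up and 9 down, and with DESeq2 or RLE size factors 14 up and 5 down. Between D2-13B6 and D2 it was 19, with 15 up and 4 down, where 2 were down without D2-13B6 replicate 2 or 3. These shares stand beside 60.0%, 58.3% and 57.3% of all genes called. The split turned with the stem cell marker scaling, to 24 up and 2 down in D2 against B6, 5 up and 18 down in B6-13D2 against B6 and 2 up and 20 down in D2-13B6 against D2, so the directions of these genes too are relative to the average gene. On that scale the changes of Dek (-0.00) and Cdca7l (-0.12) in D2 against B6, Fam208a (0.03) in B6-13D2 against B6, and Asf1b (0.09), Zfp638 (0.05) and Cdca7 (-0.05) in D2-13B6 against D2, all described below, were not called. Dnmt1 in D2 against B6 (0.20) and Rbbp4 in D2-13B6 against D2 (-0.15) were called in the opposite direction.

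Among 9 genes of H3.3 deposition and PML bodies, 6 passed the test between D2 and B6, with 2 up and 4 down in D2. Dek, an H3.3-binding chromatin protein whose gene lies on chromosome 13, fell most by 0.54 (SE 0.051, edgeR adjusted p = 7.29e-08). H3f3b, one of the genes for H3.3, rose by 0.12 (SE 0.036, edgeR adjusted p = 0.0094), a call that ended without B6 replicate 1 (0.09), fell in B6-13D2 against B6 by 0.26 and rose in D2-13B6 against D2 by 0.36. H3f3b, like Morc2a, lies on chromosome 11. The group of B6-13D2 against B6 had 3 called, all lower, among them the H3.3 chaperone Hira at -0.09 (adjusted p from 0.0197 to 0.702 over the alternatives). That of D2-13B6 against D2 had 7 called, 4 higher and 3 lower, with Ubn1, a partner of HIRA, lowest at -0.16 (adjusted p from 0.01 to 0.218). Hira was called in 9 of 18 alternatives, with values from -0.09 to -0.02, and Ubn1 in 14 of 18. Among left-out libraries the Hira call ended without B6 replicate 1 (-0.08), B6-13D2 replicate 2 (-0.08) or 3 (-0.09) or D2 replicate 1 (-0.07). The Ubn1 call ended without D2 replicate 1 (-0.10) or D2-13B6 replicate 2 (-0.14) or 3 (-0.16).

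All 7 CAF-1 partners and genes of histone supply passed the test between D2 and B6, with 2 up and 5 down in D2, and between B6-13D2 and B6, with 6 up and 1 down. In D2-13B6, 4 of 7 rose over D2 and none fell. Over all genes 60.0% were called in the first of these comparisons, 30.3% of them lower in D2 as a share of all genes tested. The second had 58.3% called and 25.4% higher, and the third 57.3% called and 27.6% higher. Nasp, a histone H3 and H4 chaperone, fell in D2 against B6 by 0.65 (SE 0.045, edgeR adjusted p = 1.27e-09). Asf1b, which hands histones to CAF-1 in dividing cells, rose in B6-13D2 against B6 by 0.59 (SE 0.072, edgeR adjusted p = 1.51e-06) and in D2-13B6 against D2 by 0.34. Its difference of 0.20 in D2 against B6 was no longer called without B6 replicate 1 (0.18) or 3 (0.18) or D2 replicate 2 (0.12). Its paralog Asf1a stood at -0.13 in B6-13D2 against B6, called in 7 of 18 alternatives, and Rbbp4, the small CAF-1 subunit, rose in D2-13B6 against D2 by 0.10, a call that ended without D2 replicate 2 (0.08) or D2-13B6 replicate 3 (0.09).

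Of the 7 HUSH partners, 5 passed the test between D2 and B6, with 1 up and 4 down in D2. In B6-13D2, 1 rose and 3 fell from B6, and in D2-13B6, 3 rose and 1 fell from D2. These counts stand beside 60.0%, 58.3% and 57.3% of all genes called. Resf1, a partner of SETDB1 in silencing retroviruses, fell in D2 against B6 by 0.77 (SE 0.046, edgeR adjusted p = 1.82e-10, 0.59-fold). Fam208b, which encodes TASOR2 and lies on chromosome 13, fell in B6-13D2 against B6 by 0.43 (SE 0.046, edgeR adjusted p = 2.35e-07) and in D2-13B6 against D2 by 0.42 (SE 0.044, adjusted p = 2.17e-07), and rose in D2 against B6 by 0.15. Like Pphln1 it was lower in both congenic lines than in their background strains. Fam208a, which encodes the HUSH scaffold TASOR, rose in B6-13D2 against B6 by 0.22 (SE 0.038, edgeR adjusted p = 7.02e-05), and Zfp638, which recruits HUSH to unintegrated retroviral DNA, rose in D2-13B6 against D2 by 0.29.

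Of the other MORC ATPases, Morc2b did not pass the filter. Morc1, which acts in germ cells, rose in B6-13D2 against B6 by 0.45 (SE 0.063, edgeR adjusted p = 7.85e-06) and in D2-13B6 against D2 by 0.55 (SE 0.060, adjusted p = 4.1e-07). Morc4 fell in B6-13D2 against B6 by 0.83 (SE 0.11, edgeR adjusted p = 4.4e-06), from 7.53 ± 0.74 CPM (SD, n = 3) to 4.26 ± 0.53. In D2 against B6, Morc1 at 0.19 and Morc4 at 0.30 were called, and these calls ended without D2 replicate 3 (0.10 and 0.24), that of Morc4 also without B6 replicate 3 (0.24). Lrif1, the partner that brings SMCHD1 to H3K9me3, fell in B6-13D2 against B6 by 0.87 (SE 0.073, edgeR adjusted p = 1.26e-08, 0.55-fold).

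Of 5 HELLS partners and genes of methylation maintenance, 4 fell from B6 to D2 and none rose, while 4 rose in B6-13D2 over B6 and 3 rose in D2-13B6 over D2, with none lower. All genes had 60.0%, 58.3% and 57.3% called in the same order. In these directions it was 30.3% lower, 25.4% higher and 27.6% higher. Cdca7l fell in D2 against B6 by 0.66 (SE 0.089, edgeR adjusted p = 5.46e-06), and Dnmt1, the maintenance methyltransferase, by 0.34. Uhrf1, which guides DNMT1 to newly replicated DNA, rose in B6-13D2 against B6 by 0.68 (SE 0.035, edgeR adjusted p = 1.55e-11) and still stood at 0.49 when scaled to the stem cell markers. In that comparison Hells differed by 0.01. Cdca7, which recruits HELLS, rose in D2-13B6 against D2 by 0.19 (SE 0.039, edgeR adjusted p = 0.000418), where Hells rose by 0.60.

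Of 41 S phase genes, which exclude Hells and Chaf1b although these belong to the same standard list and include 5 genes of the related list (Cdca7, Mcm2, Nasp, Pcna and Uhrf1), 40 passed the test between D2 and B6, with 2 up and 38 down in D2 and a median of -0.47. In B6-13D2, 33 rose over B6 and none fell (1 fell without B6 replicate 1 or without D2 replicate 3), with a median of 0.23, and in D2-13B6, 30 rose and 3 fell from D2, with a median of 0.21. Of all genes, 60.0%, 58.3% and 57.3% were called in these comparisons. By direction, 30.3% were lower in D2 against B6, 25.4% higher in B6-13D2 against B6 and 27.6% higher in D2-13B6 against D2. The medians of all genes were 0.01, -0.04 and 0.00. Set beside the medians of the S phase genes, Chaf1b at 0.57 was higher in B6-13D2 and Hells at 0.01 was lower, and in D2-13B6 against D2 both Hells at 0.60 and Morc2a at 0.62 were higher. When scaled to the stem cell markers, 25 S phase genes passed the test between D2 and B6, with 18 up and 7 down in D2, beside 72.9% of all genes up and 6.64% down. In B6-13D2 against B6 it was then 14 up and 5 down, beside 13.2% and 48.3% of all genes. In D2-13B6 against D2 the direction turned, to 8 up and 14 down, beside 12.8% and 51.7% of all genes.

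Likeness of pattern was measured as the root mean square distance between centred log2 CPM values over the 12 libraries, as a description. The nearest gene of all those tested was Prdm14 for Hells (distance 0.034), Tspan14 for Chaf1b (0.059), Cad for Chaf1a (0.045), Prune1 for Mphosph8 (0.032) and Mme for Morc2a (0.041). For Daxx it was Kifc1 (0.043), for Atrx Qtrt2 (0.022), for Pphln1 Ppfia1 (0.047), for Morc3 Mkrn1 (0.040) and for Smchd1 Asxl2 (0.040). Among the members themselves Daxx and Morc3 were the closest pair, at 0.065. Chaf1b was the most distant, with Mphosph8 nearest at 0.19. A gene with the same level in all libraries would lie at 0.14 from Daxx and Morc3 and at 0.42 from Chaf1b. These distances thus also follow the size of a gene's own differences. Median distances from a member to all genes lay between 0.35 and 0.53.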

How the data were processed

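The authors deposited expected counts, which are estimates and can be fractional, for each Ensembl gene in each library; per the file headers they come from EMASE, which divides reads that map to several places. Per the submitters' processing notes, Bowtie 1.0.0, edgeR 3.34.1 and mm10 were named, without their roles; the annotation release and the use of strand are not given in the sources used here. Counts of Chaf1a, Mphosph8 and Morc2a were not whole in every library, so part of their reads was divided. Symbols and positions are from GENCODE M21 (GRCm38), which held 42462 of 43346 identifiers; the other 884 held 0.361% of the counts. Promoter windows are from RefSeq (GRCm38.p6).

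These were rounded. With edgeR 4.0.16 (R 4.3.3), genes were kept by filterByExpr with the groups given (minimum count 10), scaled by TMM and fitted by quasi-likelihood with 4 group means over 12 libraries (common dispersion 0.00183), with Benjamini-Hochberg adjustment over 17148 genes at 0.05. A standard error is the size of a log2 fold change over the root of its F value. Log2 CPM for the likeness of patterns used a prior count of 2. The difference between backgrounds is B6-13D2 minus B6 less D2 minus D2-13B6, which equals congenic minus parental libraries. Columns of the congenic lines carry a prefix in the table that parental columns lack, and whether it marks a batch cannot be told apart from the congenic lines themselves. On counts simulated for D2 against B6 (16700 genes), edgeR recovered 34.4% of genes changed by 0.25, 71.9% by 0.5 and 90.8% by 1 on the log2 scale, with 2 false calls. The simulation changed few genes, in D2 only, and gave every gene the common dispersion. In the data 60.0% of genes were called in this comparison and genes differ in spread, so these rates need not hold for the results above.

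The members and lists were chosen with earlier results of these data known. Named related genes are the called genes with the highest and lowest log2 fold change in each group of the list and comparison (D2 against B6 and each congenic line against its background strain). Alternatives were a fit with DESeq2 1.42.0, RLE scaling in edgeR, keeping all genes, keeping genes with a mean CPM of 1 or more, a block for the replicate number, a fit of the 2 groups compared alone, leaving out each library, and, added after seeing the data, scaling to the stem cell markers. No column was left unmapped.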

Additional observations from a re-analysis of the deposited data

Results flagged for a closer look

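For 9 of the 10 members the effect of the D2 segment relative to the B6 segment differed between the B6 and D2 backgrounds, by the edgeR test of that difference, beside 64.5% of all genes. The difference, B6-13D2 minus B6 less D2 minus D2-13B6 on the log2 scale, was 0.90 for Chaf1b, 0.61 for Hells, 0.59 for Morc2a, 0.58 for Mphosph8, 0.35 for Chaf1a, 0.31 for Smchd1, 0.28 for Morc3, 0.15 for Daxx and -0.41 for Pphln1. In this contrast the other genes of chromosome 11 had a median of 0.41, beside -0.03 for the rest of the genome. Other genes within 2 Mb had medians of 0.36 at Morc2a and -1.15 at Pphln1. The part of these shifts in both values was not tested. The adjusted p was highest for Daxx, at 0.0288. With the libraries scaled to the stem cell markers it was 0.47 for Chaf1b, 0.18 for Hells and 0.16 for Morc2a, all called, -0.42 for Atrx, -0.28 for Daxx, -0.15 for Morc3 and -0.84 for Pphln1, all called, and not called for Mphosph8 (0.15), Chaf1a (-0.085) and Smchd1 (-0.13). Of 31 related genes tested, 21 differed, 15 up and 6 down, a share near that of all genes, and on the stem cell marker scale 4 were up and 20 down. Of the 19 named related genes, which had been chosen as extremes of comparisons that make up this contrast, 13 differed: Morc1 by 1.00, Asf1b by 0.93, Uhrf1 by 0.84, Cdca7 by 0.71, Fam208a by 0.50, Nasp by 0.42, Dnmt1 by 0.40 and Rbbp4 by 0.20, and on the other side Morc4 by -0.86, Fam208b by -0.85, Lrif1 by -0.81, Resf1 by -0.26 and Dek by -0.23. The contrast equals congenic minus parental libraries, so a difference between backgrounds and anything shared by the congenic libraries cannot be told apart.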

How the results depend on the processing

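Without the scaling to stem cell markers each total of members, related genes and S phase genes called stayed within 1.5 times its value. Counts by direction moved more: with DESeq2 or RLE size factors, B6-13D2 against B6 had 1 member lower in place of 3 and 5 related genes lower in place of 9, and S phase genes higher in D2-13B6 against B6 went from 4 to 8 with only the libraries compared. Without one library at a time, members called were 9 in D2 against B6, 5 to 6 in B6-13D2 against B6, 8 to 10 in D2-13B6 against D2, 10 in B6-13D2 against D2, 6 to 7 in D2-13B6 against B6 and 8 to 9 in the difference between backgrounds. Without B6 replicate 3, the library with another line name, the counts were 9, 5, 10, 10, 6 and 9. The replicate number as a block gave 9, 6, 10, 10, 7 and 9 members called, the same as without it. Between same-numbered libraries of different groups the mean r of deviations was -0.011 over 18 pairs (from -0.13 to 0.068). Between differently numbered libraries it was 0.0054. With 3 libraries centred within each group these means are tied, so they cannot show whether a number marks a batch. With DESeq2 or RLE size factors D2-13B6 against B6 had 5 members called.

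Scaled to the stem cell markers, 5 members were called in D2-13B6 against D2, and 25 and 19 S phase genes in D2 against B6 and B6-13D2 against B6. Signs then reversed while the median of all genes moved by 0.54 (D2 against B6), -0.19 (B6-13D2 against B6), -0.25 (D2-13B6 against D2), -0.72 (B6-13D2 against D2), 0.29 (D2-13B6 against B6) and -0.43 (difference). In D2 against B6 the reversed values were 0.22 for Atrx, 0.17 for Daxx, 0.00067 for Chaf1a, 0.0074 for Mphosph8, 0.51 for Pphln1, 0.14 for Morc2a, 0.21 for Morc3, 0.13 for Smchd1 and 0.20 for Dnmt1. In B6-13D2 against B6 they were -0.044 for Chaf1a, -0.13 for Smchd1 and -0.17 for Hells. In D2-13B6 against D2 they were -0.12 for Atrx, -0.041 for Chaf1a, -0.053 for Cdca7, -0.089 for Dnmt1 and -0.15 for Rbbp4. In B6-13D2 against D2 they were -0.52 for Atrx, -0.49 for Daxx, -0.044 for Chaf1a, -0.35 for Morc2a, -0.44 for Morc3, -0.27 for Smchd1 and -0.097 for Hells. In D2-13B6 against B6 they were 0.10 for Atrx, 0.21 for Daxx, 0.047 for Chaf1b, 0.14 for Mphosph8, 0.096 for Pphln1, 0.29 for Morc3, 0.14 for Smchd1 and 0.28 for Hells. In the difference they were -0.42 for Atrx, -0.28 for Daxx, -0.085 for Chaf1a, -0.15 for Morc3 and -0.13 for Smchd1.

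Uncalled values near 0 also changed sign. Pphln1 in D2 against B6 was 0.022 with DESeq2, 0.025 with RLE, 0.022 at a mean CPM of at least 1, 0.010 without B6 replicate 2 and 0.00171 without D2 replicate 3, and -0.072 without D2 replicate 2. Morc2a in B6-13D2 against B6 was 0.038, 0.036, 0.011 and 0.0092 with DESeq2, RLE, the CPM filter and only the libraries compared, and Morc3 there was 0.021 and 0.020 with DESeq2 and RLE. In D2-13B6 against B6, Morc3 was 0.051, 0.053, 0.017, 0.010 and 0.064 with DESeq2, RLE, no filter, the CPM filter and only the libraries compared, and 0.011 to 0.016 without B6 replicate 1 or 3, D2 replicate 1 or D2-13B6 replicate 2 (0.012 for B6 replicate 3 and D2 replicate 1), but -0.042 without B6 replicate 2. Hells there was 0.043, 0.044, 0.00826, 0.0016 and 0.055 in the same settings and 0.0033 without D2 replicate 1, but -0.029 without B6 replicate 1, and in B6-13D2 against B6 it was -0.014 without B6-13D2 replicate 1. The Atrx difference was -0.013 without D2 replicate 2 and -0.00318 without D2-13B6 replicate 1, and reached 0.061 without D2 replicate 3. The cause was not tested. The lowest count of a member in a library was 1145, and the part of depth was not tested.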

Other observations

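The marker lists of other cell types were low beside the stem cell and fibroblast markers. The summed level of 6 primitive endoderm markers ran from 15.0 to 15.6 CPM in B6-13D2, 32.1 to 33.3 in B6, 36.3 to 38.1 in D2-13B6 and 40.7 to 43.4 in D2, with Dab2, an endocytic adaptor also made by other cells, the largest of them. The 4 neuroectoderm markers summed to between 53.8 and 79.4 CPM in all libraries, and Tubb3, a neuronal tubulin, gave most of it. The 4 mesoderm markers ran from 8.38 to 17.5 CPM and the 4 trophectoderm markers from 13.2 to 19.5 CPM, with Eomes, which is in both lists, at 14.2 CPM in B6-13D2 and 4.16 CPM in D2-13B6. None of these markers was at 0 in every library.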
